A study of Drosophila melanogaster with 5 samples.

Results

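Notch signalling genes were followed across eye-antennal imaginal discs and disc tumors of Drosophila third-instar larvae. The set was chosen by gene symbol and held 10 genes: the receptor N, the ligands Delta (Dl) and Ser, the modulators fng, neur and kuz, and 4 genes of the Enhancer of split complex. A gene entered when a probe set named it alone, which left 7 of the 10 among 11982 genes measured in all. These were Delta, fng, neur, kuz, E(spl)mbeta-HLH, E(spl)m7-HLH and E(spl)malpha-BFM, each with 1 probe set except Delta with 2, while N, Ser and E(spl)m8-HLH were not analysed here. All 7 passed the filter on dim genes, which kept 7850 genes whose highest level over the arrays was at or above 6.36 on the log2 scale.

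The 5 groups had 1 array each. Sras mutant 1 and Sras mutant 2 were tumors of a separate Sras mutant each, with Ras overexpression. The scrib mutant group was tumors mutant for scrib with Ras overexpression, which the design names as a positive control. The Ras group was tumors overexpressing Ras alone, and the WT control group was discs described as 79E control. Ras overexpression was thus shared by every group but WT control. Tumor clones were marked with GFP by MARCM, which makes marked mutant clones inside otherwise unmarked tissue. The alleles, the driver of Ras and the number of larvae per array were not stated. With 1 array per group no test or error was possible, and each difference below is between 2 single arrays. The nearest guide to the spread was the difference between the Sras mutant arrays, which had an SD of 0.243 log2 over the kept genes, although these are separate mutants and not replicates. The arrays held RNA of whole samples, in which fewer cells of a type and less RNA per cell cannot be told apart.

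Notch is a receptor on the cell surface that is bound by ligands on neighbouring cells. Binding lets proteases release the inner part of the receptor, which enters the nucleus and, with Su(H) and mam, turns on genes such as those of the Enhancer of split complex. In the eye disc this pathway drives growth from the dorsal-ventral midline, and at the morphogenetic furrow it first promotes and then restricts the choice of photoreceptor founder cells. The ligand gene Delta encodes a transmembrane protein, fng a glycosyltransferase that modifies Notch and favours its response to Delta, neur a ubiquitin ligase that activates Delta in signal-sending cells, and kuz a metalloprotease that cleaves Notch after ligand binding. E(spl)mbeta-HLH and E(spl)m7-HLH encode repressors of the basic helix-loop-helix type that act with the co-repressor gro. E(spl)malpha-BFM encodes a small protein of the Bearded family, which inhibits neur.

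The tissue label was looked at first. Of 18 eye and antennal identity genes 17 were measured, and at most 1 of them lay below the filter value in any array. Their median levels were 10.05 in Sras mutant 1, 10.04 in Sras mutant 2 and 8.18 in scrib mutant, against 8.96 in Ras and 8.90 in WT control. In scrib mutant these genes split. Of the 17, 6 were at least 2-fold higher than Ras and 6 lower, when 9.26% and 14.2% of kept genes were. Their median difference was 0.29. In each Sras mutant 8 of the 17 were at least 2-fold higher than Ras, when 4.04% and 4.96% of kept genes were. There 0 were lower, when 9.77% and 9.95% were. Markers of salivary gland, muscle and fat body had far higher medians in Ras and WT control. The 8 salivary gland markers had median levels of 6.62 in Sras mutant 1, 9.10 in Sras mutant 2 and 6.11 in scrib mutant, against 14.25 in Ras and 14.57 in WT control. The 8 measured muscle markers of 10 had medians of 7.45, 7.11 and 7.003 in the same 3 tumors, against 11.07 in Ras and 10.99 in WT control. The 4 measured fat body markers of 7 had medians of 10.01, 11.37 and 9.55 in these tumors, against 13.06 in Ras and 13.18 in WT control. Markers of neuroblasts, neural stem cells that also use Notch, were lower than Ras by at least 2-fold for 3 of 5 in each Sras mutant and for 4 of 5 in scrib mutant. Of kept genes 9.77% and 9.95% were in the Sras mutants and 14.2% in scrib mutant. The 7 measured neuron and glia markers of 8 had medians of 9.22, 9.065 and 7.97 in these tumors, against 9.91 in Ras and 9.68 in WT control. Of these 7, 1 was at least 2-fold lower than Ras in each Sras mutant, and 3 were lower and 1 higher in scrib mutant. The 4 measured wing and leg disc markers of 5 had medians of 7.67, 7.70 and 5.00 in these tumors, against 7.42 in Ras and 7.33 in WT control. They did not move together. Antp, by the brightest of its 3 probe sets, read 4.26, 4.46 and 4.38, against 7.74 in Ras and 7.41 in WT control. In each Sras mutant 2 of the 4 were above Ras and 2 below, and in scrib mutant 1 was above and 3 below. The 8 hemocyte (blood cell) markers had medians of 9.004, 8.47 and 8.68, against 9.07 in Ras and 9.84 in WT control. These markers move with the comparisons described here, and their part in the differences below was not tested.

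Directions against Ras rest on how the arrays are scaled. Values below are after quantile normalization, and no sign of a 2-fold difference in the set changed with median centring or with the values as deposited. Each array was also centred on the 17 identity genes, which are not a neutral reference, by subtracting their median level in that array. The median of kept genes then moved to −0.984 and −0.995 from Ras in the Sras mutants and to 0.93 in scrib mutant. This centring did not bring the identity genes themselves level with Ras. Their median difference from Ras went from 0.67 to −0.41 in Sras mutant 1 and from 0.81 to −0.26 in Sras mutant 2. In scrib mutant it went from 0.29 to 1.07. Under that centring, which kept 8688 genes, 48.0% and 49.3% of kept genes were at least 2-fold lower than Ras in the Sras mutants, and 44.2% were at least 2-fold higher in scrib mutant. All 7 genes of the set were then below Ras in both Sras mutants, and 5 of 7 above it in scrib mutant. Relative to that shift of all genes, fng was at 0.73 and 0.82 for the Sras mutants 1 and 2 and at 1.27 for scrib mutant. On the same relative scale and for the same tumors, neur was at −0.54, −0.57 and −1.71, and E(spl)malpha-BFM at 0.02, 0.07 and −1.42.

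fng was higher in the 3 mutant tumors than in Ras, except in the Sras mutants after centring on identity genes (−0.26 and −0.18). Its log2 level was 12.13 in Sras mutant 1, 12.19 in Sras mutant 2 and 12.71 in scrib mutant, against 11.30 in Ras and 11.11 in WT control. All 3 mutant tumors therefore read above both Ras and WT control, with scrib mutant highest, and the gap between Ras and WT control was within the 0.243 guide. The difference from Ras was 0.83 in Sras mutant 1, 0.90 in Sras mutant 2 and 1.41 in scrib mutant, or 1.78-fold, 1.86-fold and 2.66-fold. These differences lay above those of 93.4%, 93.6% and 95.5% of kept genes. Against WT control the same tumors were 2.02-fold, 2.11-fold and 3.03-fold higher.

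neur was lower in the 3 mutant tumors than in Ras under every scaling tried. Its log2 level was 9.49 in Sras mutant 1, 9.44 in Sras mutant 2 and 8.36 in scrib mutant, against 9.93 in Ras and 9.53 in WT control. The Ras array was highest and the scrib mutant array lowest, and both differed from WT control by more than the guide. From Ras, neur lay at −0.43 and −0.49 in the Sras mutants and at −1.56 in scrib mutant, where Ras was 2.95-fold higher. In the Sras mutants it was within 0.10 of WT control.

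Delta, the one ligand measured, depended on the probe set. The brighter probe set read 10.82 in both Sras mutants and 10.03 in scrib mutant, against 10.42 in Ras and 10.07 in WT control. The other read 9.55 in Sras mutant 1, 9.46 in Sras mutant 2 and 9.45 in scrib mutant, against 8.89 in Ras and 8.42 in WT control. Both put the Sras mutants above Ras, by 0.40 and 0.40 with the brighter and by 0.67 and 0.57 with the other, although after centring on identity genes the brighter lay at −0.69 and −0.67. They disagreed on scrib mutant, which was below Ras by the brighter (−0.39) and above it by the other (0.56), so no direction is given for Delta there.

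kuz varied little. Its log2 level was 10.09 in Sras mutant 1, 10.16 in Sras mutant 2 and 9.69 in scrib mutant, against 10.17 in Ras and 9.87 in WT control. Both Sras mutants lay within the guide of Ras, and scrib mutant was lower by 0.47 and differed from WT control by less than the guide. Its range over the 5 arrays, 0.48, was larger than that of 33.3% of kept genes.

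**Figure D1:**
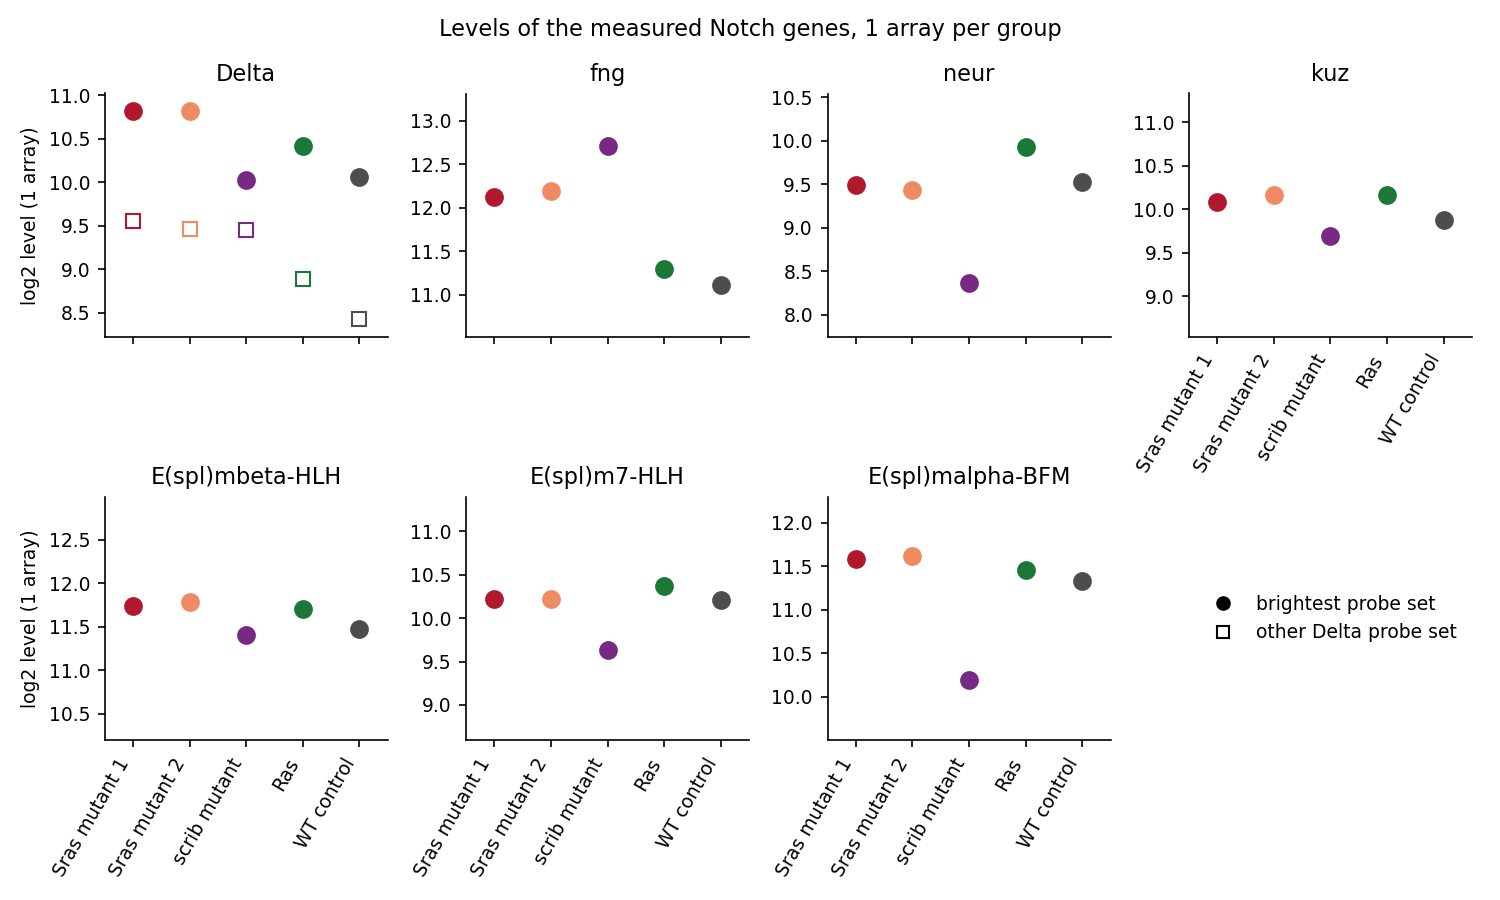
Log2 level (vertical axis, each panel spanning the same number of units) of each measured gene in the 5 arrays, with 1 point per array and no error bars because no group had a second array; open squares show the other Delta probe set. The scrib mutant point is highest for fng (12.71) and lowest for neur (8.36) and E(spl)malpha-BFM (10.19), and the Sras mutant points lie close together in each panel.

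Among the targets, E(spl)malpha-BFM had a wider range than E(spl)m7-HLH or E(spl)mbeta-HLH, at 1.43 log2 units. Its log2 level was 11.58 in Sras mutant 1, 11.61 in Sras mutant 2 and 10.19 in scrib mutant, against 11.46 in Ras and 11.33 in WT control. The scrib mutant array was lower than each of the other 4 by over 2-fold, and Ras was 2.42-fold higher than it. The Sras mutants were within 0.16 of Ras.

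E(spl)m7-HLH was lowest in scrib mutant as well, by a smaller amount. Its log2 level was 10.22 in both Sras mutants and 9.63 in scrib mutant, against 10.36 in Ras and 10.21 in WT control. The scrib mutant lay at −0.74 from Ras, and the other 4 arrays were within 0.16 of each other. E(spl)mbeta-HLH was the least variable gene of the set, with levels of 11.74 in Sras mutant 1, 11.78 in Sras mutant 2 and 11.41 in scrib mutant, against 11.70 in Ras and 11.47 in WT control. Its scrib mutant level differed from Ras by −0.30 and from WT control by −0.06.

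The first comparison of the design asked what Ras overexpression alone changed. Of the 7 genes 0 were at least 2-fold higher and 0 at least 2-fold lower in Ras than in WT control, when 0.701% and 1.36% of kept genes were. All 7 differences were above 0, as were 54.6% of those of kept genes, and they ran from 0.14 in E(spl)malpha-BFM to 0.39 in neur with a median of 0.23, against a median of 0.02 over kept genes. neur (0.39), Delta (0.35) and kuz (0.30) exceeded the guide of 0.243. The other 4, which included all 3 targets, did not. The 7 differences stayed above 0 in all 4 scalings tried, with a lowest value of 0.07. Hemocyte markers differed in this comparison too, with 8 of 8 below 0, 3 at least 2-fold lower in Ras and a median of −0.77.

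The next comparison set the tumors of each Sras mutant against Ras alone. Neither array held a gene of the set at least 2-fold higher than Ras (0 of 7 in each, against 4.04% and 4.96% of kept genes) or at least 2-fold lower (0 of 7 in each, against 9.77% and 9.95%). After centring on identity genes 4 of 7 in Sras mutant 1 and 3 in Sras mutant 2 were at least 2-fold lower, near the 48.0% and 49.3% of kept genes. The median difference was 0.04 in Sras mutant 1 and 0.08 in Sras mutant 2, against 0.11 and 0.08 over kept genes. In both arrays fng and Delta were above Ras and neur below it by more than the guide, whereas kuz and the 3 targets lay between −0.15 and 0.15. With the brightest probe set of each gene, the Sras mutants themselves differed by 0.08 or less in all 7. Against WT control, fng alone was at least 2-fold higher in each Sras mutant (1 of 7, when 5.75% and 6.6% of kept genes were), and 0 of 7 were at least 2-fold lower (10.5% and 10.8%). That count uses the brightest probe sets, and the other Delta probe set was also 2.19-fold and 2.05-fold higher than WT control there.

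In scrib mutant tumors 1 of the 7 genes, fng, was at least 2-fold higher than Ras (9.26% of kept genes were), and 2, neur and E(spl)malpha-BFM, were at least 2-fold lower (14.2% of kept genes were). After centring on identity genes 1 of 7, fng, was at least 2-fold higher, when 44.2% of kept genes were, and 0 were 2-fold lower, when 8.18% were, with neur at −0.78 and E(spl)malpha-BFM at −0.49. The median difference was −0.47, against 0.11 over kept genes, and 6 of 7 were below 0 (42.4% of kept genes were). Delta was among those 6 by its brighter probe set alone. Against WT control the same 1 gene was at least 2-fold higher and the same 2 lower, when 10.5% and 14.8% of kept genes were, and the other Delta probe set was 2.03-fold higher. Genes of the furrow and of photoreceptors, cells in which neur and several Enhancer of split genes are active, were at least 2-fold lower than Ras for 10 of 11 kept members in scrib mutant, with a median of −1.91. Of these 11, 4 were at least 2-fold higher than Ras in each Sras mutant, when 4.04% and 4.96% of kept genes were. In Sras mutant 1, 1 was lower and in Sras mutant 2, 2 were, when 9.77% and 9.95% of kept genes were. The part of the furrow and photoreceptor shift of scrib mutant in the lower Notch genes was not tested.

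Against scrib mutant, the Sras mutants held neur (1.13 and 1.07) and E(spl)malpha-BFM (1.39 and 1.43) at least 2-fold higher, which made 2 of 7 in each, when 8.03% and 8.1% of kept genes were. They held 0 of 7 at least 2-fold lower, against 4.85% and 4.28%. fng lay at −0.59 and −0.52 from scrib mutant. Centring on identity genes ended these calls. All 7 genes were then lower in both Sras mutants, 5 of 7 by at least 2-fold, when 91.9% and 91.7% of kept genes were. neur was then at −0.74 and −0.78 and E(spl)malpha-BFM at −0.48 and −0.43. The same centring put the median difference of the 17 identity genes at −0.97 and −1.02, in place of 0.90 and 0.84. These comparisons share the scrib mutant array, and those with Ras share the Ras array, so they are not independent of each other.

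**Figure D2:**
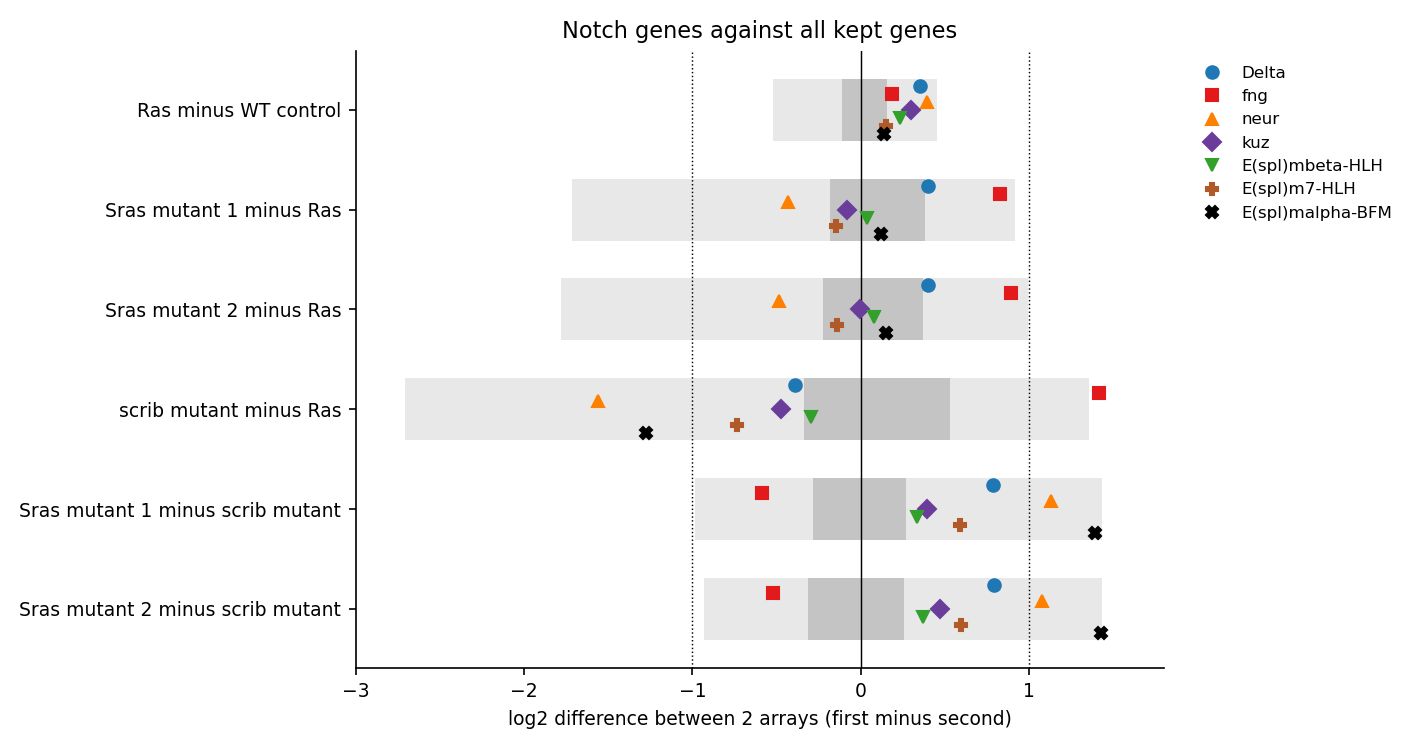
Log2 difference between the 2 arrays named on each row (horizontal axis, first minus second) for the 7 genes; light grey spans the 5th to the 95th percentile of 7850 kept genes, dark grey the 25th to the 75th, and dotted lines mark 2-fold. fng lies highest in each of the 3 comparisons with Ras as the baseline, at 0.83, 0.90 and 1.41, and neur lowest, at −0.43, −0.49 and −1.56; centring on identity genes turns the sign of fng in the Sras mutants.

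The Enhancer of split complex is a row of 12 genes in the annotation, most of them activated by Notch. Of these, 10 were measured and 9 kept, E(spl)m6-BFM being below the filter value in every array. In the Sras mutants 0 of the 9 were 2-fold from Ras in either direction. Of kept genes 4.04% and 4.96% were higher there, and 9.77% and 9.95% lower. Centring on identity genes lowered the median of kept genes there. Under it 4 of the 9 were lower in each, beside 48.0% and 49.3% of kept genes. After quantile normalization the 9 differences ran from −0.51 to 0.66 in Sras mutant 1 and from −0.51 to 0.35 in Sras mutant 2. In scrib mutant 4 of the 9 were at least 2-fold lower (14.2% of kept genes were) and 0 higher (9.26% were), with a median of −0.74. After centring on identity genes 3 of these 4 were still at least 2-fold lower, when 8.18% of kept genes were. E(spl)malpha-BFM was then at −0.49, and the other 5 of the 9 lay above Ras.

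The lower genes did not form 1 block of neighbours. E(spl)mdelta-HLH, a repressor gene at one end of the row known to be active in a single photoreceptor class, read 11.35 in Sras mutant 1, 11.03 in Sras mutant 2 and 8.15 in scrib mutant, against 10.69 in Ras and 10.51 in WT control. Its scrib mutant level was −2.53 from Ras and was the lowest of the 5 by over 2 log2 units. E(spl)mbeta-HLH, the next measured gene, lay at −0.30, followed by E(spl)malpha-BFM at −1.27.

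Kaz-m1, which encodes a protein of the Kazal protease inhibitor type, was next in the row and had the lowest difference of the complex in scrib mutant, −3.40. It read 10.80 in Sras mutant 1, 10.80 in Sras mutant 2 and 7.91 in scrib mutant, against 11.31 in Ras and 11.83 in WT control, so all 3 tumors were below both. Further along, E(spl)m2-BFM was at −0.48 and E(spl)m3-HLH at 0.54, the one kept gene of the complex above Ras in scrib mutant. E(spl)m4-BFM, a Bearded family gene beside it, read 10.75, 10.48 and 8.04 in the same tumors, against 10.18 in Ras and 10.15 in WT control, or −2.14 from Ras in scrib mutant. E(spl)m5-HLH lay at −0.59 with a level of 6.55 near the filter value, and E(spl)m7-HLH at −0.74.

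The repressor genes and the Bearded family genes overlapped. In scrib mutant 1 of 5 kept repressor genes was at least 2-fold below Ras, with values from −2.53 to 0.54. Of 6 kept Bearded family genes, counting the separate Bearded complex, 2 were at least 2-fold below, with values from −2.14 to −0.16. Of all kept genes 14.2% were at least 2-fold below Ras there. In the Sras mutants all 6 Bearded family genes lay above Ras, with medians of 0.59 and 0.33 and a lowest value of 0.01. Under the centring on identity genes the 6 were all below 0 in both Sras arrays. In scrib mutant 4 of the 6 then lay above Ras and 1 was at least 2-fold lower (8.18% of kept genes were). With median centring or the values as deposited all 6 stayed above Ras in both Sras mutants and below it in scrib mutant. The directions therefore depend on the scaling, and neither is settled.

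**Figure D3:**
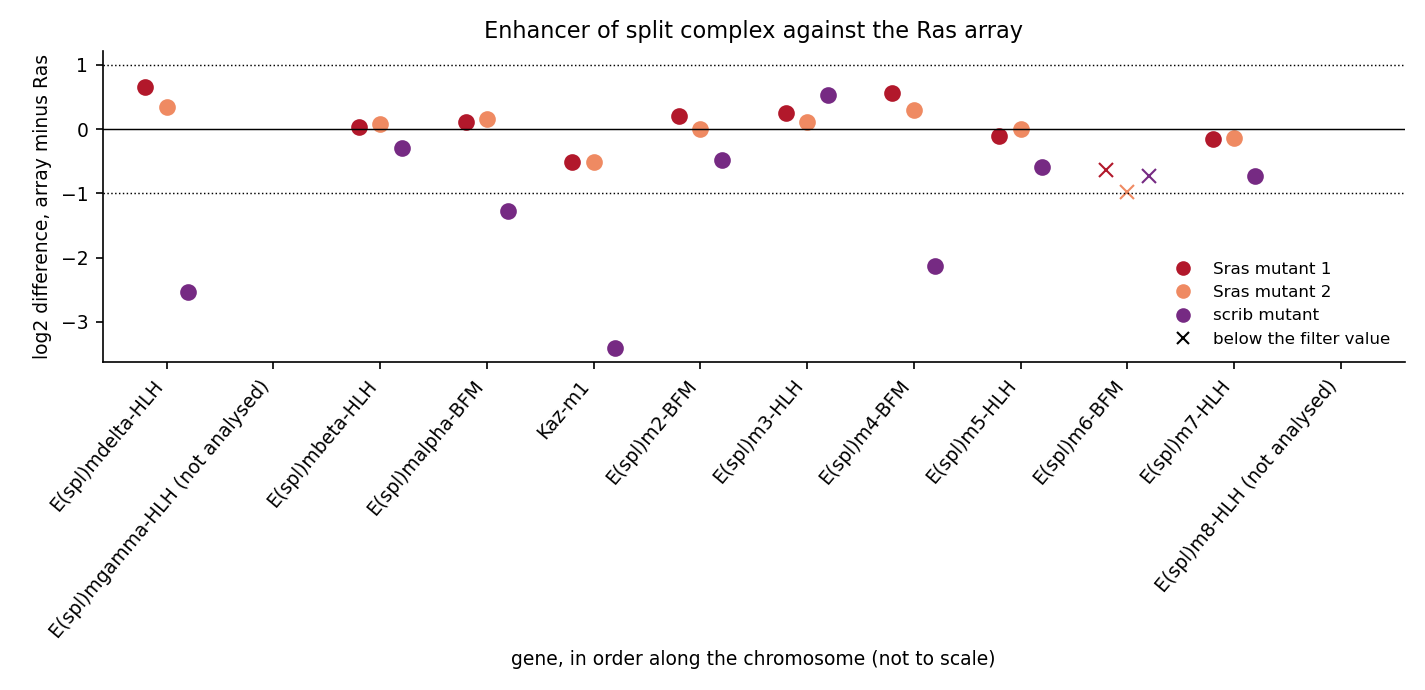
Log2 difference from the Ras array (vertical axis) for the Enhancer of split complex in chromosomal order, with 1 point per tumor array; crosses mark the gene below the filter value and dotted lines 2-fold. The scrib mutant points for E(spl)mdelta-HLH (−2.53), Kaz-m1 (−3.40) and E(spl)m4-BFM (−2.14) lie far below the line, and those of the Sras mutants stay between the dotted lines.

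Of 53 other Notch genes listed, the complex included, 43 were kept. Against Ras, Sras mutant 1 had 3 of them at least 2-fold higher and 2 lower, and Sras mutant 2 had 4 higher and 2 lower. The scrib mutant had 4 higher and 8 lower. In the same order of arrays 4.04%, 4.96% and 9.26% of kept genes were higher and 9.77%, 9.95% and 14.2% lower. The counts use the brightest probe set of each gene. For ct, among the higher in scrib mutant and in Sras mutant 2, another probe set lay below Ras. For mam and vg, among the lower in scrib mutant, the other probe set lay above Ras. The medians of 0.21, 0.19 and 0.03 compare with 0.11, 0.08 and 0.11 over kept genes. Centring on identity genes changed the counts to 1 higher and 15 lower in Sras mutant 1, 1 and 16 in Sras mutant 2, and 18 and 5 in scrib mutant. Of kept genes 0.426% were then higher and 48.0% lower in Sras mutant 1, and 0.691% and 49.3% in Sras mutant 2. For scrib mutant the shares were 44.2% and 8.18%. Against WT control the Ras array held 0 of 43 in either direction, when 0.701% of kept genes were higher and 1.36% lower.

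Genes of the disc margin and midline included the highest differences of the list. upd1, a JAK/STAT ligand gene that Notch activates at the eye margin, read 10.39 in Sras mutant 1, 10.88 in Sras mutant 2 and 8.93 in scrib mutant, against 6.78 in Ras and 6.73 in WT control, so that all 3 tumors exceeded both by at least 2.15 log2 units. eyg, which acts with Notch in eye growth, differed from Ras by 1.35, 1.48 and 1.013, and fj, a kinase gene of planar polarity graded from the midline, by 0.72, 0.85 and 1.63. All 6 genes of this group were above Ras in scrib mutant, when 57.5% of kept genes were. In each Sras mutant 5 of 6 were, when 61.5% and 58.7% of kept genes were. After centring on identity genes 6 were above Ras in scrib mutant and 2 in each Sras mutant, eyg and upd1.

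After quantile normalization few components that process and carry the signal were 2-fold from Ras. Of 7 kept genes of receptor processing, 1 was at least 2-fold lower and 0 higher in each of the 3 mutant tumors, and the same counts held for 10 kept regulators of Notch trafficking. The 3 kept genes of ligand activity held 0 in either direction. Of 5 kept genes of the nuclear complex, 0 were 2-fold from Ras in either Sras mutant, and 1, mam, was lower in scrib mutant by the brighter of its 2 probe sets. Among all kept genes, 4.04% and 4.96% were at least 2-fold higher in the Sras mutants, and 9.77% and 9.95% lower. The scrib mutant shares were 9.26% higher and 14.2% lower. Centring on identity genes changed the counts of these groups, as it did those of all kept genes. Under it 48.0% and 49.3% of kept genes were at least 2-fold lower in the Sras mutants. The scrib mutant shares became 44.2% higher and 8.18% lower. In each Sras mutant 2 of 7 genes of receptor processing, 4 of 10 of trafficking, 2 of 3 of ligand activity and 3 of 5 of the nuclear complex were then at least 2-fold lower. In scrib mutant 4 of 7, 5 of 10, 0 of 3 and 1 of 5 of the same groups were then at least 2-fold higher, and 1 of 7, 1 of 10, 0 of 3 and 0 of 5 lower. Psn, the catalytic subunit of gamma-secretase, differed from Ras by 0.09 in Sras mutant 1, 0.10 in Sras mutant 2 and 0.06 in scrib mutant, and gro, the co-repressor gene, by 0.06, 0.01 and −0.19. Tace, a metalloprotease gene related to kuz, was lower, with levels of 8.92, 8.68 and 7.59 in the same tumors, against 10.12 in Ras and 9.75 in WT control. spdo, a transmembrane protein gene of asymmetric neural divisions, was lower as well, with differences from Ras of −1.16, −1.25 and −1.93. After quantile normalization the neuroblast repressor gene dpn was lower in scrib mutant alone at the 2-fold threshold (0.02, −0.15 and −1.56). Centring on identity genes put dpn at −1.065, −1.225 and −0.773, past 2-fold in the Sras mutants and not in scrib mutant. Neuroblast markers, of which dpn is 1, were lower in scrib mutant too, as given above.

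The targets ct and vg were dim. ct differed from Ras by 0.67, 1.00 and 1.28 with the brightest of its 3 probe sets, by 0.59, 1.04 and 0.74 with another, and by −1.65, −1.34 and −1.67 with the third. vg, a selector gene of the wing, read 7.42 in Sras mutant 1, 7.44 in Sras mutant 2 and 5.06 in scrib mutant, against 6.29 in Ras and 6.24 in WT control, and its other probe set gave 0.34 in scrib mutant in place of −1.23. For these reasons neither gene is given a direction in scrib mutant, and ct is given none in the Sras mutants either.

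**Figure D4:**
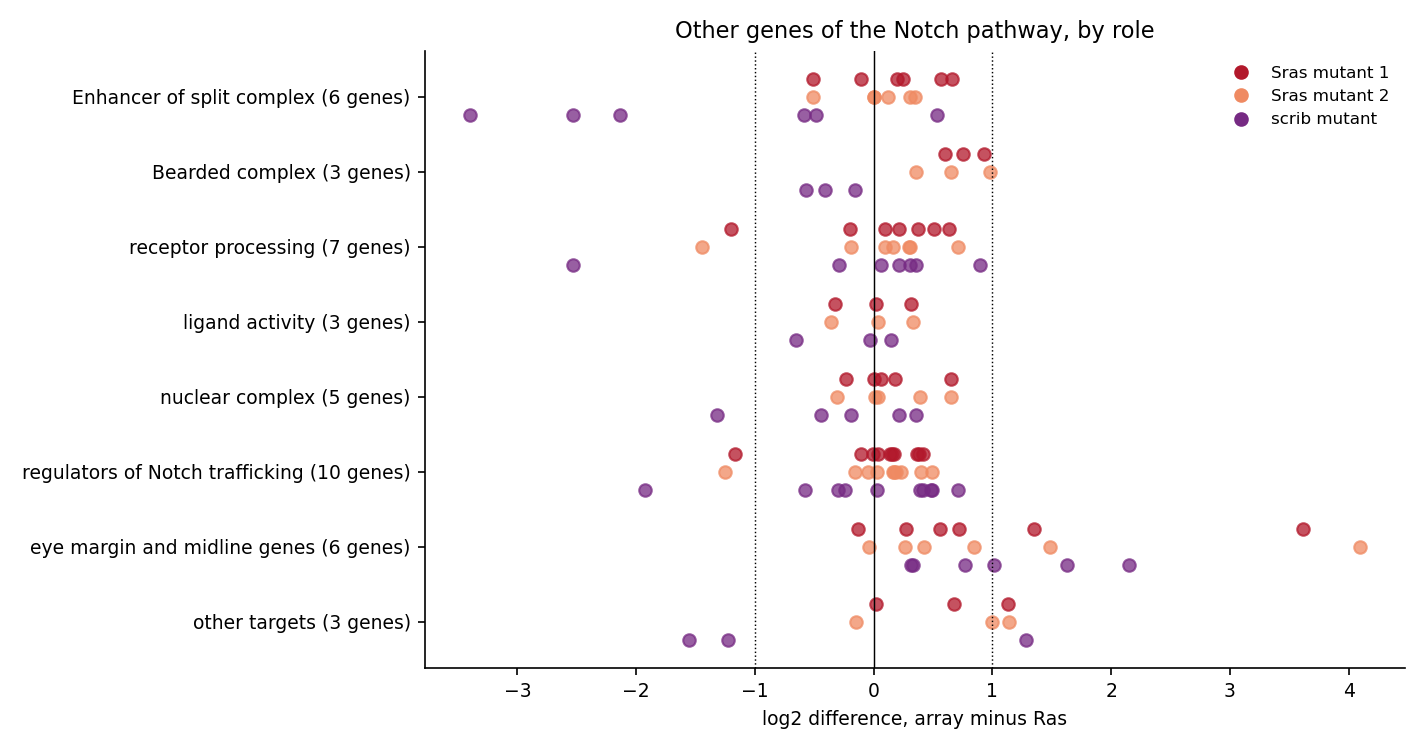
Log2 difference from the Ras array (horizontal axis) for 43 other kept Notch genes grouped by role, with 1 point per gene and tumor array and dotted lines at 2-fold. Margin and midline genes include the points farthest right, up to 4.10 for upd1 in Sras mutant 2, and the points left of −2 are scrib mutant points of the Enhancer of split complex and Tace.

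The genes whose profiles over the 5 arrays were most like those of the set were sought for the 3 members that spanned at least 1 log2 unit, by the root mean square distance between profiles after subtraction of each gene's mean. With 5 arrays many genes have like profiles, so the nearest are a description. For fng the nearest of 5094 named genes were escl, of the Polycomb group (0.051), and FASN1, a fatty acid synthase (0.054). For neur they were Lrch (0.058) and metro (0.071). For E(spl)malpha-BFM they were mam, the Notch co-activator gene (0.044), and Spn, Spinophilin (0.081). mam read 8.95 in Sras mutant 1, 8.98 in Sras mutant 2 and 7.63 in scrib mutant, against 8.95 in Ras and 8.76 in WT control, but its other probe set was above Ras in scrib mutant by 0.62, near the filter value, so the likeness holds for 1 of 2 probe sets. Within the set, kuz and E(spl)mbeta-HLH were the closest pair, at 0.060, and fng and neur the farthest, at 1.06.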

How the data were processed

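The authors deposited log2 values for 18952 probe sets on 5 arrays. That they are log2 was inferred from their range, and the authors' background correction, normalization and probe summary were not stated (not given in the sources used here). Array medians differed by up to 0.153 log2, and the arrays were quantile normalized, after which a general shift of an array is invisible. Of the probe sets 13647 named 1 gene and 402 several. Symbols were updated by gene identifier through RefSeq's Release 6 table. The probe set with the highest mean stood for each gene, and genes were kept whose highest value reached the 40th percentile of gene values (6.36). Differences of single arrays were counted past 2-fold, and the counting was tested on simulated data. The number of arrays limits the precision, and detection above background was not known. Named genes were the 10 members, the measured complex genes, other Notch genes past 2-fold (in both Sras mutants, or in scrib mutant or Ras, at most 6 each way), and the 2 nearest profiles per wide-ranging member; gro, Psn, Brd and Tom outside these rules were chosen after their values were seen. The members and lists were chosen with earlier results of these data known. Python 3.11.15, NumPy 2.4.6, pandas 2.3.3 and Matplotlib 3.10.9 were used.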

Additional observations from a re-analysis of the deposited data

Results flagged for a closer look

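Several genes lay on opposite sides of the same Ras array in the Sras mutants and in scrib mutant, each by more than 0.243 log2. With 1 array per group the difference between the mutants was not tested. Values are given for Sras mutant 1, Sras mutant 2 and scrib mutant minus Ras. E(spl)mdelta-HLH lay at 0.66, 0.35 and −2.53, and E(spl)m4-BFM at 0.57, 0.30 and −2.14. The Bearded complex genes were Brd, at 0.75, 0.65 and −0.57, and Tom, at 0.93, 0.98 and −0.41. Delta lay at 0.40, 0.40 and −0.39, and vg at 1.13, 1.14 and −1.23, but in scrib mutant the other probe set of each was above Ras, at 0.56 for Delta and 0.34 for vg. These contrasts hold after quantile normalization. Centring on the identity genes put E(spl)mdelta-HLH (−0.42, −0.73 and −1.75) and E(spl)m4-BFM (−0.52, −0.77 and −1.35) below Ras in all 3 tumors, and turned Brd (−0.33, −0.42 and 0.21), Tom (−0.15, −0.10 and 0.38) and Delta (−0.69, −0.67 and 0.40) round, while vg lay at 0.04, 0.07 and −0.45.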

How the results depend on the processing

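Centring each array on its median, the values as deposited, no filter and a stricter filter moved 0 of 42 member differences each by more than 0.243 log2. Centring on the 17 identity genes left 7 of 42 within that distance and turned the sign of 24, among them 4 of the differences that were at least 2-fold: against scrib mutant, neur became −0.74 and −0.78 and E(spl)malpha-BFM −0.48 and −0.43 in Sras mutant 1 and Sras mutant 2. Under it the counts of genes at least 2-fold lower became 4 in Sras mutant 1 and 3 in Sras mutant 2 against Ras (medians −1.05 and −0.997, with 48.0% and 49.3% of kept genes lower), 0 in scrib mutant (median 0.31, with 8.18%), and 5 in each Sras mutant against scrib mutant (medians −1.28 and −1.26, with 91.9% and 91.7%), with 0 higher in the last pair. At 1.5-fold, 1 gene was higher than Ras in each Sras mutant, and against scrib mutant 4 were higher in each and 1 lower in Sras mutant 1. At 3-fold, 0 were higher or lower in scrib mutant against Ras and 0 higher in each Sras mutant against scrib mutant. With WT control in place of Ras as the baseline, which for counts and medians was added after the data were seen, 1 gene was 2-fold higher in each Sras mutant, and the scrib mutant median was −0.18. The other Delta probe set, also added later, moved 4 of 6 Delta differences and the mean of both probe sets moved 3. The causes were not tested. No paired analysis was possible because each group had 1 array. With 1 array per group, no difference of any size could be told from variation between arrays. The guide of 0.243 log2 comes from 2 separate mutants and does not measure that variation.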
